A study of Mus musculus with 4 samples.

Results

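The interferon-induced GTPases of the guanylate-binding protein (GBP) and immunity-related GTPase (IRG) families were followed in RNA sequencing of mouse brain tissue through 6 Gbp genes (Gbp2, Gbp3, Gbp4, Gbp5, Gbp6 and Gbp7) and 4 IRG genes (Irgm1, Irgm2, Igtp and Iigp1). The 10 genes were taken by symbol from the 54532 genes in the files, and all 10 were found. The mice were C57BL/6 and fell into 4 groups of 1 library each: old tumor-bearing, old naive, young tumor-bearing and young naive. Tumor-bearing mice had received 50000 GL261 cells, a C57BL/6 glioma line, into the brain, and tissue described as extra-tumoral was taken at day 21. Naive mice were controls without a graft, although the labels give the GL261 tag to all 4 samples, and no treatment was recorded for any group. Young mice were 8 to 12 weeks old, and the range given for old mice, 8 to 90 weeks, has the same lower bound. The sources used here did not say how many mice stood behind a library. With 1 library per group there is no replicate check and no test, and every statement compares libraries.

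GBPs and IRGs are large GTPases that cells make in response to interferons, above all interferon gamma. They assemble on the vacuoles of intracellular parasites and bacteria and help to break or mark them. GBPs also take part in the activation of inflammasomes, and the regulatory IRGM proteins keep the effector IRGs off the cell's own membranes. In resting tissue most of these genes are transcribed at low levels, and their induction runs in part through IRF1 and other IRF factors.

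Transcription factors of the interferon response bind short elements in promoters, so the promoters of the members are shown first. RefSeq entries of assembly GRCm38.p6 were at hand for 7 of the 10 members and not for Gbp4, Gbp6 and Iigp1. The letters GAAANNGAAA, the core of the interferon-stimulated response element bound by IRF factors, were searched on both strands, as were the letters TTCNNNGAA, the palindromic core of the gamma-activated site. GAAANNGAAA was present in 7 of 7 members, against 3.44% of 32851 RefSeq promoters of the same length. TTCNNNGAA was present in 4 of 7 members (Gbp5, Gbp7, Irgm2 and Igtp), against 8.30% of those promoters. Both occurred together in 0.454% of the promoters. Members were counted by gene and the background by promoter. A second Gbp3 promoter, with its start site at chr3:142560356, held 0 matches of either element. A match describes letters only and does not show that a factor was bound. To let the elements be compared, the 30 bases around GAAANNGAAA in each member are given 5′ to 3′ on the strand of the gene, with every matched letter in capitals. In the 4 Gbp promoters the element lies on the opposite strand and reads as its reverse complement, and in Irgm1, Irgm2 and Igtp it reads forwards.
Gbp2, chr3:142620594-142620623, plus strand: actcttttagTTTCACTTTCactgtcttaa
Gbp3, chr3:142559992-142560021, plus strand: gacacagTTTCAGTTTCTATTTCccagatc
Gbp5, chr3:142496759-142496788, plus strand: acttgtgtagTTTCAATTTCagtttagaga
Gbp7, chr3:142530273-142530302, plus strand: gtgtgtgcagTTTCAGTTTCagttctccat
Irgm1, chr11:48871428-48871457, minus strand: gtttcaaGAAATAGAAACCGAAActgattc
Irgm2, chr11:58214898-58214927, plus strand: ccatTTCCAGGAActGAAACTGAAAgctgt
Igtp, chr11:58199507-58199536, plus strand: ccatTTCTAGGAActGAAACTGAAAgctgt

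Counted from the RefSeq start site, the first base of the element lay 30 and 24 bases upstream in Irgm1, 34 in Igtp, 45 and 39 in Gbp3, 53 in Gbp7, 59 in Gbp2, 64 in Irgm2 and 165 in Gbp5. Gbp3 and Irgm1 each held 2 overlapping matches. In Irgm2 and Igtp the TTCNNNGAA element began 11 bases before GAAANNGAAA, and the same spacing was found in Tgtp1, Tgtp2 and Gm12185, IRG genes outside the 10 members. Igtp and Irgm2 are neighbours on chromosome 11, and the 250 bases before their start sites were also alike outside the elements. In a global alignment 194 of 285 columns (68.1%) were identical, against 41.2% (Gbp3 and Irgm1) to 51.1% (Gbp3 and Gbp7) in the other pairs of members. Both stretches are given, with the 2 elements in capitals, to show the likeness.
Igtp, chr11:58199306-58199555, plus strand: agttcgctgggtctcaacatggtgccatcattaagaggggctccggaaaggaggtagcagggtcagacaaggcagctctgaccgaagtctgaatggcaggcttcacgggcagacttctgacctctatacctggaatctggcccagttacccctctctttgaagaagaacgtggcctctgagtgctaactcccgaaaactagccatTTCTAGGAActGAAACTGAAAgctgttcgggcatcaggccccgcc
Irgm2, chr11:58214727-58214976, plus strand: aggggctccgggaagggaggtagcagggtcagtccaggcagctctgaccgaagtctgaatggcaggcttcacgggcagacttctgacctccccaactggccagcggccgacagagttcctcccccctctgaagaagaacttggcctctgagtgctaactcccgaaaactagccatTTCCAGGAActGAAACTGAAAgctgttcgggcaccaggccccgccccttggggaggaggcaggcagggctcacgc

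The libraries held 19572251 (old tumor-bearing), 19628991 (old naive), 21893363 (young tumor-bearing) and 23267926 (young naive) fragments in genes, recovered from the deposited FPKM values, which are fragments per kilobase scaled by a divisor for each library. The divisors did not follow these fragments. Per fragment in genes the divisor was 1.19 in old tumor-bearing, 0.797 in old naive, 0.914 in young tumor-bearing and 0.879 in young naive tissue. The old tumor-bearing library stood apart in what it contained. The summed level of 7 neuron markers was 166 FPKM in old tumor-bearing, 1154 in old naive, 749 in young tumor-bearing and 826 in young naive tissue. The sum of 6 proliferation markers was 129 FPKM in old tumor-bearing, 0.473 in old naive, 5.79 in young tumor-bearing and 0.777 in young naive tissue. Markers of neurons, astrocytes and oligodendrocytes were above 0 in all 4 libraries, which carry the label brain, and each sum was lowest in the old tumor-bearing one. Astrocyte markers summed to 336 FPKM in old tumor-bearing, 502 in old naive, 662 in young tumor-bearing and 601 in young naive tissue. Oligodendrocyte markers summed to 705 FPKM in old tumor-bearing, 856 in old naive, 1109 in young tumor-bearing and 1182 in young naive tissue. Single markers, Gfap and Sox10, were higher in old tumor-bearing than in old naive tissue. The old naive library stood apart as well: 5 choroid plexus markers summed to 455 FPKM in old tumor-bearing, 7.52 in old naive, 396 in young tumor-bearing and 412 in young naive tissue. Each result on old tumor-bearing tissue rests on these single libraries, and the comparison of young tumor-bearing with young naive tissue gives the values without them.

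All 10 GTPase genes were highest in old tumor-bearing tissue, second in young tumor-bearing tissue and lower in both naive tissues. Their summed level was 1329 FPKM in old tumor-bearing, 18.6 in old naive, 102 in young tumor-bearing and 10.9 in young naive tissue. Together the 10 genes had 104242 reads in old tumor-bearing, 1154 in old naive, 7060 in young tumor-bearing and 847 in young naive tissue, so the naive values are the least precise. In bulk tissue, more cells that make a transcript and more transcript per cell cannot be told apart.

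**Figure D1:**
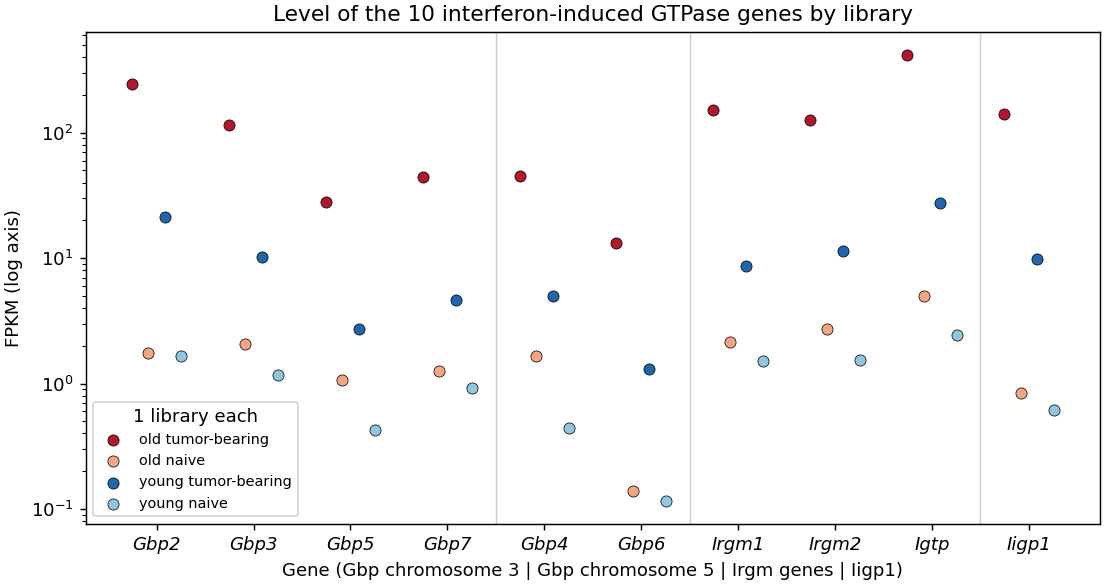
Level of each of the 10 GTPase genes in FPKM (log axis) in the old tumor-bearing, old naive, young tumor-bearing and young naive libraries, 1 point per library. For every gene the old tumor-bearing point is highest and the young tumor-bearing point second, with sums over the 10 genes of 1329 and 102 FPKM in those libraries.

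The regulatory IRGs were the most abundant part of the group. Igtp, which encodes Irgm3, a regulatory protein of the endoplasmic reticulum, stood at 419 FPKM in old tumor-bearing, 4.96 in old naive, 27.3 in young tumor-bearing and 2.44 in young naive tissue. It was the most abundant member in all 4 libraries. Ranked by FPKM among protein-coding genes above 0, Igtp was number 37 of 17335 in old tumor-bearing and number 10466 of 16766 in young naive tissue. Irgm1, linked to autophagy and to resistance against mycobacteria, had 152 FPKM in old tumor-bearing, 2.15 in old naive, 8.60 in young tumor-bearing and 1.52 in young naive tissue. Irgm2, found at the Golgi, had 126 FPKM in old tumor-bearing, 2.70 in old naive, 11.3 in young tumor-bearing and 1.55 in young naive tissue. Both had similar levels in the naive libraries, and Irgm1 was above Irgm2 in old but not in young tumor-bearing tissue. Igtp and Irgm2 overlap on the same strand, with 5.16% of the 100-base transcript windows of Igtp found in Irgm2, so a small part of their reads could be split between them.

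Iigp1 encodes Irga6, an effector IRG that coats and disrupts parasite vacuoles. Its level was 142 FPKM in old tumor-bearing, 0.840 in old naive, 9.82 in young tumor-bearing and 0.611 in young naive tissue. It was the second least abundant member in old naive tissue and the fourth most abundant in old tumor-bearing tissue. Its reads did not come out whole with the GENCODE M21 length of 5823 bases, and 3121 bases, the shortest length that gave whole reads in all 4 libraries, was used for its intervals, with its FPKM values left as deposited.

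The Gbp genes of the chromosome 3 cluster spanned a wide range. Gbp2, a GBP recruited to parasite vacuoles, had 243 FPKM in old tumor-bearing, 1.75 in old naive, 21.2 in young tumor-bearing and 1.67 in young naive tissue. Gbp3 had 116 FPKM in old tumor-bearing, 2.07 in old naive, 10.1 in young tumor-bearing and 1.17 in young naive tissue. Gbp7, a GBP that brings NADPH oxidase parts to bacterial vacuoles, had 44.1 FPKM in old tumor-bearing, 1.26 in old naive, 4.605 in young tumor-bearing and 0.923 in young naive tissue. The 3 genes shared the order of the libraries and differed in level. Gbp5, a GBP reported to promote inflammasome assembly, had 28.2 FPKM in old tumor-bearing, 1.07 in old naive, 2.73 in young tumor-bearing and 0.427 in young naive tissue. The 4 genes of this cluster lay within 8.62-fold of each other in old tumor-bearing tissue and within 1.94-fold in old naive tissue.

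The chromosome 5 cluster held the least abundant member. Gbp4 had 45.5 FPKM in old tumor-bearing, 1.66 in old naive, 4.98 in young tumor-bearing and 0.444 in young naive tissue. Gbp6 was the least abundant member in every library, with 13.3 FPKM in old tumor-bearing, 0.140 in old naive, 1.30 in young tumor-bearing and 0.115 in young naive tissue, and only 13 reads in old naive and 14 in young naive tissue. Gbp6 is also the least certain: 64.5% of its 100-base transcript windows occur in other genes, Gm43302, Gbp10 and Gbp11. The corresponding share was 10.01% for Gbp7 and at most 5.16% for the other 8 members. Gbp4 overlaps Gbp8 and Gbp9 on the same strand, and Gbp6 overlaps Gm43302 on the same strand. Gm43302 alone held 59.0% of the windows of Gbp6 and had 0 reads in all 4 libraries.

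In old tumor-bearing tissue the order of levels was Igtp, Gbp2, Irgm1, Iigp1, Irgm2, Gbp3, Gbp4, Gbp7, Gbp5 and Gbp6, and of neighbours in this order only Gbp4 and Gbp7 had overlapping 95% counting intervals of their shares. In young tumor-bearing tissue it was Igtp, Gbp2, Irgm2, Gbp3, Iigp1, Irgm1, Gbp4, Gbp7, Gbp5 and Gbp6, with overlaps from Irgm2 to Irgm1 and between Gbp4 and Gbp7. In both naive tissues only Igtp at the top and Gbp6 at the bottom were set apart from their neighbours by more than counting error.

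**Figure D2:**
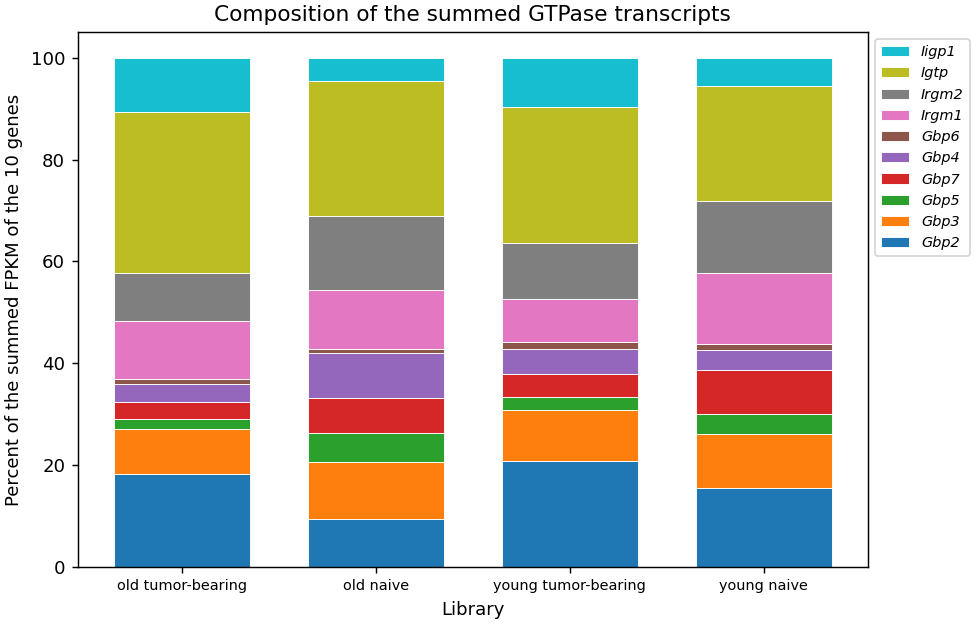
Share of each gene in the summed FPKM of the 10 GTPase genes, in percent, as stacked bars for the old tumor-bearing, old naive, young tumor-bearing and young naive libraries. Igtp is the broadest band in each bar, at 31.6% in old tumor-bearing, 26.7% in old naive, 26.7% in young tumor-bearing and 22.5% in young naive tissue.

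The make-up of the group differed between libraries. Gbp2 held 18.3% of the summed level in old tumor-bearing tissue (95% interval 17.99 to 18.5), against 9.42% (7.33 to 11.5) in old naive tissue. In young mice Gbp2 held 20.8% (19.7 to 21.9) in tumor-bearing tissue, against 15.4% (12.4 to 18.3) in naive tissue. The share of Gbp2 was thus larger with a tumor at both ages. Iigp1 likewise held 10.7% in old tumor-bearing against 4.51% in old naive tissue, and 9.63% in young tumor-bearing against 5.62% in young naive tissue. Gbp4 was the reverse in old mice, with 3.42% in old tumor-bearing tissue (3.35 to 3.4997) against 8.94% (7.66 to 10.2) in old naive tissue. Irgm1 held 11.5% in old tumor-bearing and 11.5% in old naive tissue, but 8.43% (7.91 to 8.95) in young tumor-bearing against 13.9% (11.9 to 15.95) in young naive tissue. The 3 regulatory genes Irgm1, Irgm2 and Igtp together stayed between 46.3% and 52.7% in all 4 libraries.

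The effect of a tumor in old mice was examined first. Genes at 1 FPKM or above in either library of a pair were compared, and were counted at a log2 ratio of FPKM + 0.1 of 1 or more, that is 2-fold. Of the 10 members, 10 were at least 2-fold higher in old tumor-bearing than in old naive tissue, against 20.6% of 16488 genes, and 0 were at least 2-fold lower, against 31.4%. Over all genes 3395 were higher and 5171 lower, and when libraries were scaled by recovered fragments 5366 were higher and 3217 lower, with the member count again 10. The median log2 ratio was 5.77 over the members and -0.31 over all genes. Folds, given as the ratio of FPKM with nothing added, were largest for Iigp1, 169 (124.5 to 236, exact 95% interval of the reads for counting error only), and Gbp2, 138 (109 to 178). Gbp6 was 95.4-fold higher (55.6 to 179.5), Igtp 84.5-fold (72.2 to 99.5) and Irgm1 70.9-fold (61.6 to 82.1). The place of Gbp6 rests on 13 reads in old naive tissue: with 0.1 FPKM added its log2 ratio was 5.81, below 6.37 for Igtp and 6.08 for Irgm1, and with 1 FPKM added it was 3.65. Gbp5, with 26.3-fold (21.8 to 32.1), and Gbp4, with 27.4-fold (23.7 to 31.7), were the lowest of the 10. Iigp1 ranked 29 and Gbp5 399 among the 16488 genes by log2 ratio.

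Young mice were compared in the same way. Of the 10 members, 10 were at least 2-fold higher in young tumor-bearing than in young naive tissue, against 5.05% of 15500 genes, and 0 were lower, against 1.85%. The median log2 ratio was 2.90 over the members and -0.01 over all genes. Iigp1 again had the largest fold, 16.1 (11.6 to 22.8), followed by Gbp2 with 12.7 (10.2 to 15.98), Gbp6 with 11.3 (6.55 to 21.2), Gbp4 with 11.2 (8.74 to 14.6) and Igtp with 11.2 (9.10 to 13.8). The smallest folds were those of Irgm1, 5.67 (4.84 to 6.69), and Gbp7, 4.99 (4.04 to 6.20). No interval of the 10 included 1, and these values do not use the old tumor-bearing library.

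**Figure D3:**
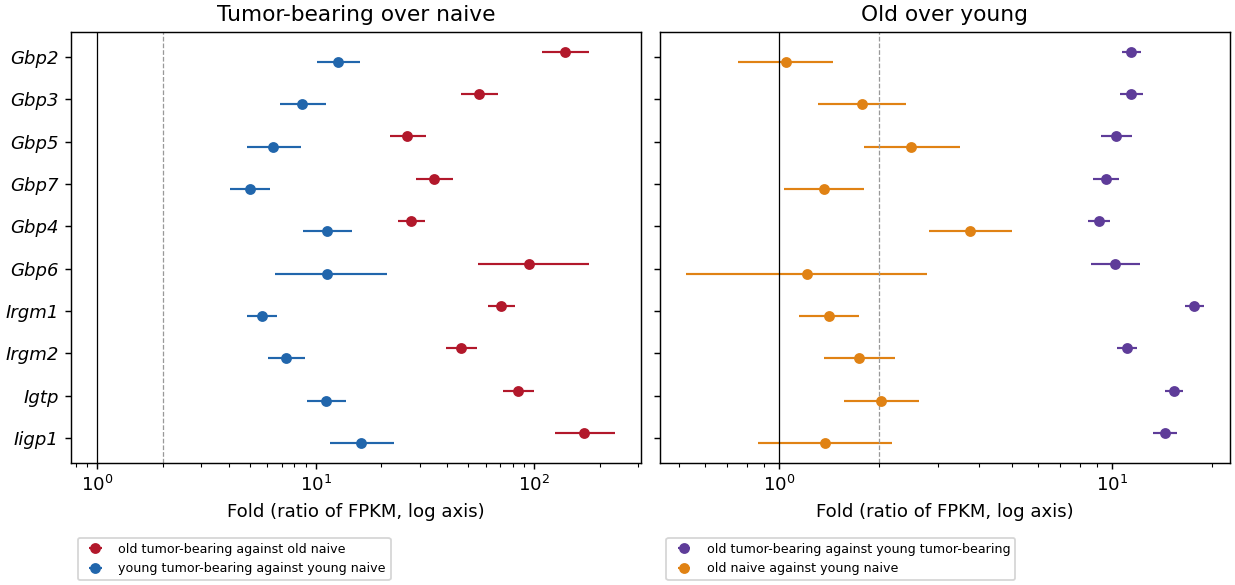
Fold (ratio of FPKM, log axis) of the 10 GTPase genes, with exact 95% counting intervals, for tumor-bearing over naive tissue in old and young mice (left) and for old over young tissue with and without a tumor (right); solid and dashed lines mark 1 and 2. All points are above 2 except in old over young naive tissue, where Gbp2 sits at 1.05 and Gbp4 at 3.75.

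Old and young naive tissue were compared to see how the genes stood without a tumor. Of the 10 members 8 could be compared, since Gbp6 and Iigp1 stayed below 1 FPKM in both libraries. Gbp4 and Gbp5 (2 of 8) were at least 2-fold higher in old naive tissue, against 6.71% of 15419 genes, and 0 of 8 were lower, against 4.93%. The median log2 ratio was 0.77 over the 8 and 0.06 over all genes. Gbp4 and Gbp5 stood below 1 FPKM in young naive tissue, at 0.444 for Gbp4 and 0.427 for Gbp5. Like Gbp7, at 0.923 FPKM there, they passed the floor only through their old naive values. The count and the median are thus tilted upwards by the floor. Without a floor 2 of 10 members were counted, against 10.9% of 28592 genes, and the median was 0.62. Gbp4 had 195 reads in old naive and 68 in young naive tissue, a fold of 3.75 (2.83 to 5.01), and Gbp5 had a fold of 2.50 (1.80 to 3.498). Under each of 4 other scalings Gbp5 fell below 1 FPKM and was not counted. Igtp was just under the threshold, with a fold of 2.03 (1.57 to 2.63) and a log2 ratio of 0.99 with 0.1 added. The folds of Gbp3, Irgm2, Irgm1 and Gbp7 lay between 1.37 (1.04 to 1.80) for Gbp7 and 1.78 (1.31 to 2.41) for Gbp3. For Gbp2 no difference was detectable at this depth, with 69 reads in old naive and 86 in young naive tissue and a fold of 1.05 (0.753 to 1.46). Gbp6, with 13 reads in old naive and 14 in young naive tissue, and Iigp1, with 41 reads in old naive and 39 in young naive tissue, had intervals that included 1.

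With a tumor, 10 of 10 members were at least 2-fold higher in old than in young tissue, against 19% of 16562 genes, and 0 were lower, against 29.8%. The median log2 ratio was 3.48 over the members and -0.28 over all genes. The folds were close together, between 9.14 (8.48 to 9.87) for Gbp4 and 17.7 (16.6 to 18.9) for Irgm1. Igtp was 15.4-fold (14.5 to 16.4) and Iigp1 14.5-fold (13.3 to 15.7) higher, while the 6 Gbp genes lay between 9.14-fold and 11.5-fold. This comparison shares the old tumor-bearing library with the first.

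The age by tumor difference is the log2 ratio of old tumor-bearing over old naive tissue less that of young tumor-bearing over young naive tissue. It was at least 1 log2 unit for 10 of the 10 members, against 19.3% of 17441 genes, and -1 or lower for 0 members, against 32%. Its median was 2.88 over the members and -0.32 over all genes. Without the added 0.1, the fold in old mice was 12.5 times that in young mice for Irgm1 (log2 3.64, 3.34 to 3.95 by normal approximation), 10.9 times for Gbp2 (3.45, 2.98 to 3.92) and 10.5 times for Iigp1 (3.40, 2.75 to 4.04). It was smallest for Gbp4, 2.44 times (1.29, 0.87 to 1.70), and Gbp5, 4.13 times (2.05, 1.56 to 2.53), the 2 genes counted as higher in old than in young naive tissue. The same naive values enter both comparisons. A higher ratio in old over young naive tissue lowers the age by tumor difference by construction, so this match is not a separate result.

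**Figure D4:**
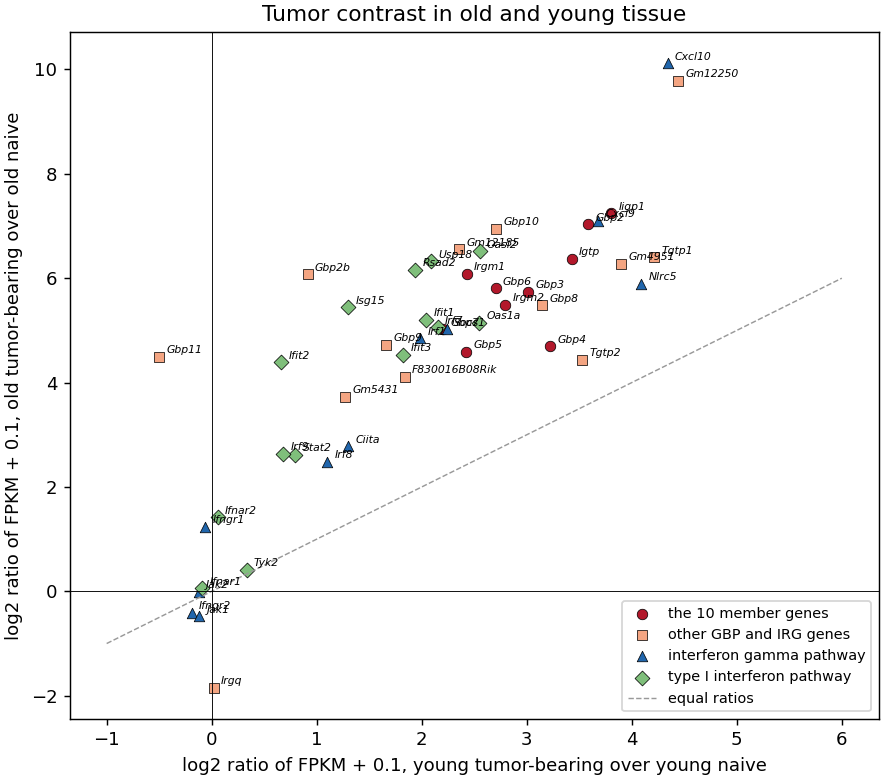
Log2 ratio of FPKM + 0.1 for old tumor-bearing over old naive tissue (vertical) against young tumor-bearing over young naive tissue (horizontal), 1 point per gene, for the 10 members, other GBP and IRG genes and the interferon pathway lists; the dashed line marks equal ratios. All 10 members lie above that line, with a median of 5.77 in old and 2.90 in young mice.

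Where the members lie was examined next, in GENCODE M21 coordinates on mm10. Gbp5 (chr3:142493978-142522344), Gbp7 (chr3:142530342-142550149), Gbp3 (chr3:142560026-142573209) and Gbp2 (chr3:142620602-142638008) follow each other on the plus strand of chromosome 3. Their folds in old tumor-bearing over old naive tissue were 26.3 for Gbp5, 34.9 for Gbp7, 55.8 for Gbp3 and 138 for Gbp2, each above the one before, with overlapping intervals for Gbp5 (21.8 to 32.1) and Gbp7 (28.9 to 42.5). In young tumor-bearing over young naive tissue the folds were 6.38 for Gbp5, 4.99 for Gbp7, 8.68 for Gbp3 and 12.7 for Gbp2, so Gbp7 was below Gbp5. This order was looked at after the values were seen. Gbp2b, also called Gbp1, lies between Gbp3 and Gbp2. It had 436 reads in old tumor-bearing and 0 in old naive tissue. With the 0 set to 3 reads in the library the fold was 97.8, and the exact 95% interval began at 79.2.

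Gbp4 (chr5:105115767-105139586) and Gbp6 (chr5:105270702-105293698) lie on the minus strand of chromosome 5 and Irgm1 (chr11:48861968-48871683) on the minus strand of chromosome 11. Igtp (chr11:58199556-58207591) and Irgm2 (chr11:58199618-58222782) lie together on the plus strand of chromosome 11, the M21 start of Irgm2 being close to that of Igtp and upstream of its RefSeq start. Iigp1 lies on chromosome 18. Within 100 kb of these loci lay 15 other protein-coding genes of neither family list. Of the 11 at 1 FPKM or above, 7 were at least 2-fold higher in old tumor-bearing than in old naive tissue, against 20.6% of all genes. In young tumor-bearing over young naive tissue it was 0 of 11, near the 5.05% of all genes. Psme2b, a copy of the proteasome activator gene Psme2 whose reads could be shared with it, was 13.1-fold (10.4 to 16.9) higher in old and 1.33-fold (1.04 to 1.70) higher in young tumor-bearing tissue. Rack1, a ribosomal scaffold gene near Irgm1, was 5.51-fold (5.29 to 5.74) higher in old tumor-bearing tissue and had a fold of 1.03 (0.986 to 1.08) in young mice. Kyat3, beyond Gbp2, stood at 0.492 FPKM in old tumor-bearing and 0.517 in old naive tissue. In young mice the members thus had folds of 4.99 or more beside neighbours at 1.49 or less.

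**Figure D5:**
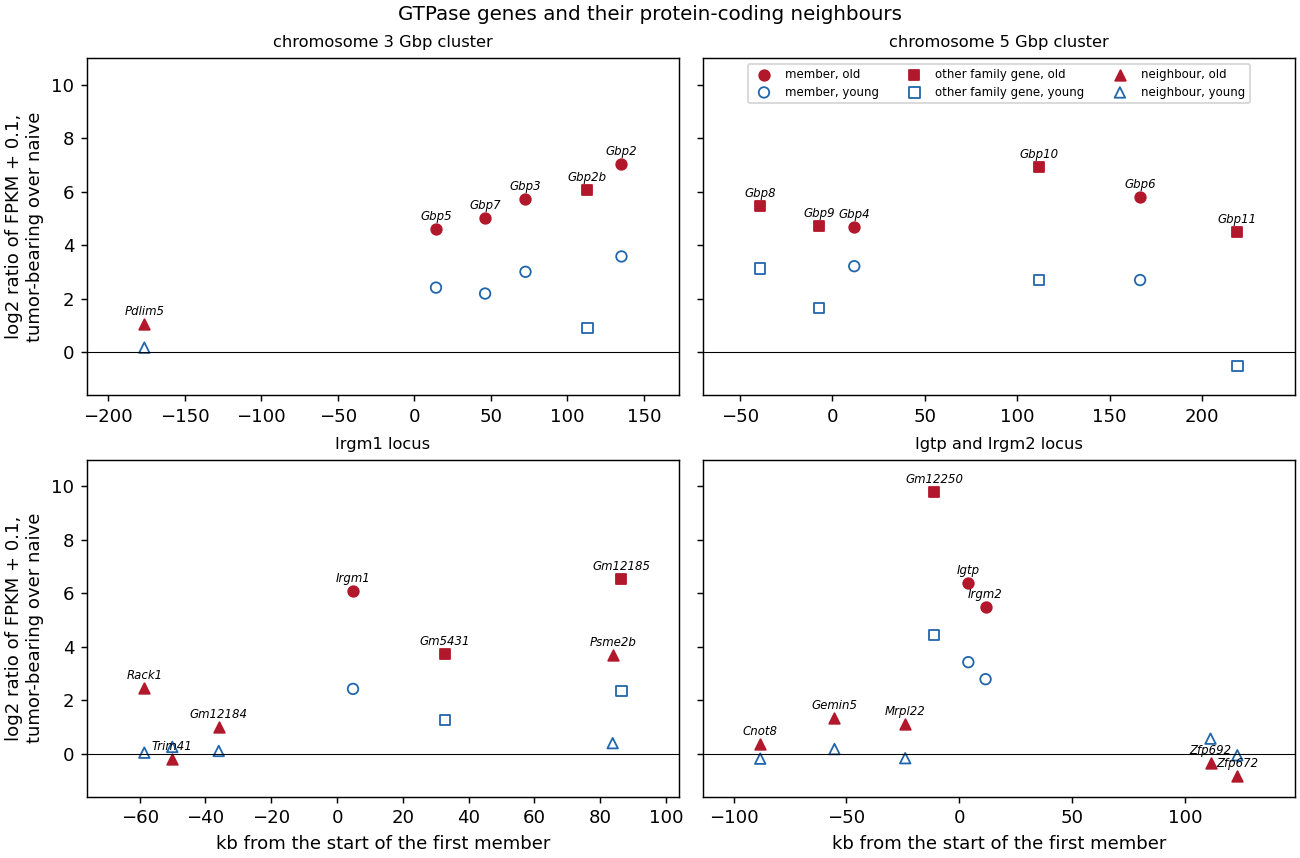
Log2 ratio of FPKM + 0.1, tumor-bearing over naive tissue, of genes at 4 loci against distance of the gene's midpoint from the start of the first member in kilobases, filled for old and open for young mice. Along chromosome 3 the ratios in old mice are 4.596 for Gbp5, 5.02 for Gbp7, 5.74 for Gbp3 and 7.03 for Gbp2, and Rack1 near Irgm1 is 5.51-fold higher in old tumor-bearing over old naive tissue, against 1.03-fold in young mice.

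The other family genes were taken from lists of 5 further Gbp and 11 further IRG genes. Of these, 5 of 5 Gbp genes and 7 of the 8 IRG genes at 1 FPKM or above were at least 2-fold higher in old tumor-bearing than in old naive tissue. In young tumor-bearing over young naive tissue 1 Gbp gene and 5 IRG genes reached 1 FPKM. There, 1 of 1 Gbp and 4 of 5 IRG genes were at least 2-fold higher. The shares over all genes were 20.6% in old and 5.05% in young mice. Gm12250, a processed pseudogene in M21 and a protein-coding gene with the synonym Irgb10 in RefSeq, encodes an effector IRG that attacks bacterial membranes and had 221 FPKM in old tumor-bearing, 0.150 in old naive, 8.75 in young tumor-bearing and 0.307 in young naive tissue. Gbp9 had 45.1 FPKM in old tumor-bearing, 1.61 in old naive, 3.18 in young tumor-bearing and 0.936 in young naive tissue. Tgtp1, an IRG gene, had 33.6 FPKM in old tumor-bearing, 0.299 in old naive, 3.45 in young tumor-bearing and 0.0916 in young naive tissue. Its level is uncertain, since 73.1% of the windows of Tgtp1 are found in other genes, mostly its near copy Tgtp2. Irgq, an IRG relative, was the exception with 8.63 FPKM in old tumor-bearing, 31.2 in old naive, 21.2 in young tumor-bearing and 20.9 in young naive tissue. Irgc1, a testis gene, had at most 8 reads in a library.

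The lists also held 3 other interferon-induced GTPases. Mx1 was 41.4-fold (22.3 to 86.7) higher in old tumor-bearing than in old naive tissue, Mx2 15.2-fold (9.59 to 25.4) and Gvin1 40.2-fold (15.5 to 149). All 3 stayed below 1 FPKM in both young libraries. The atlastins Atl1, Atl2 and Atl3 are relatives of the GBPs that shape the endoplasmic reticulum. Of these, 0 of 3 were at least 2-fold higher in either tumor comparison, against 20.6% of all genes in old and 5.05% in young mice. Atl1 had 3.91 FPKM in old tumor-bearing, 16.9 in old naive, 11.9 in young tumor-bearing and 16.01 in young naive tissue.

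Genes upstream of the members and co-induced with them were followed in a list of 12 interferon gamma pathway genes. Of the 11 at 1 FPKM or above, 8 were at least 2-fold higher in old tumor-bearing than in old naive tissue. In young tumor-bearing over young naive tissue 7 were. The shares over all genes were 20.6% in old and 5.05% in young mice. The median log2 ratios of the list were 2.78 in old and 1.30 in young mice. Irf1 had 70.9 FPKM in old tumor-bearing, 2.36 in old naive, 4.68 in young tumor-bearing and 1.11 in young naive tissue. This transcription factor gene followed the order of the libraries seen for the members. Nlrc5, which drives MHC class I transcription, had 28.6 FPKM in old tumor-bearing, 0.384 in old naive, 2.78 in young tumor-bearing and 0.0691 in young naive tissue. The chemokine gene Cxcl10 had 237 FPKM in old tumor-bearing, 0.114 in old naive, 3.69 in young tumor-bearing and 0.0869 in young naive tissue. Ifng itself was scarce, with 25 reads in old tumor-bearing, 0 in old naive, 1 in young tumor-bearing and 0 in young naive tissue. Of the receptor and kinase genes Ifngr1, Ifngr2, Jak1 and Jak2, 1 of 4 was at least 2-fold higher in old tumor-bearing tissue. In young tumor-bearing tissue 0 of 4 were, and both counts were near the shares over all genes. The gene higher in old mice was Ifngr1, a chain of the interferon gamma receptor. It had 13.5 FPKM in old tumor-bearing, 5.66 in old naive, 6.11 in young tumor-bearing and 6.37 in young naive tissue. Jak1, a kinase bound to that receptor, had 20.3 FPKM in old tumor-bearing, 28.4 in old naive, 27.1 in young tumor-bearing and 29.4 in young naive tissue. In old over young naive tissue, 1 of 6 genes at 1 FPKM or above passed 2-fold, against 6.71% of all genes. It was Irf1, with a fold of 2.13 (1.63 to 2.81).

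Of 15 type I interferon pathway genes 14 could be compared. Of the 14, 12 were at least 2-fold higher in old tumor-bearing than in old naive tissue, against 20.6% of all genes. In young tumor-bearing over young naive tissue 8 were, against 5.05% of all genes. Isg15, a ubiquitin-like modifier, had 159 FPKM in old tumor-bearing, 3.55 in old naive, 6.68 in young tumor-bearing and 2.65 in young naive tissue. Oasl2 had 78.0 FPKM in old tumor-bearing, 0.752 in old naive, 4.13 in young tumor-bearing and 0.622 in young naive tissue. Ifnb1 had 0 reads in old tumor-bearing, 0 in old naive, 0 in young tumor-bearing and 2 in young naive tissue. The median log2 ratios of the list were 4.79 in old and 1.56 in young mice, beside 5.77 in old and 2.90 in young mice for the GTPase members. In old over young naive tissue 0 of 10 genes passed 2-fold, near the 6.71% of all genes. The list median there was 0.22, beside 0.77 for the members. These differences between lists were not tested.

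Partners of the GTPases were less uniform. Of 10 genes of the autophagy conjugation system, which targets GBPs and IRGs to vacuoles, 0 were at least 2-fold higher in either tumor comparison, and 4 of 10 were at least 2-fold lower in old tumor-bearing than in old naive tissue, near the 31.4% of all genes. Gabarapl1 had 71.3 FPKM in old tumor-bearing, 307 in old naive, 201 in young tumor-bearing and 259 in young naive tissue. Of 4 ubiquitin-linked partners, 2 were at least 2-fold higher in both tumor comparisons, against 20.6% of all genes in old and 5.05% in young mice. Rnf213, an interferon-induced ubiquitin ligase, had 37.5 FPKM in old tumor-bearing, 1.11 in old naive, 2.69 in young tumor-bearing and 0.840 in young naive tissue. Trim21, an antibody receptor and ubiquitin ligase, had 14.7 FPKM in old tumor-bearing, 0.688 in old naive, 1.56 in young tumor-bearing and 0.540 in young naive tissue. Of 9 inflammasome genes, 6 of 7 at 1 FPKM or above were at least 2-fold higher in old tumor-bearing tissue, against the same 20.6%. In young tumor-bearing tissue 2 of 4 were, against 5.05%. Casp4, a sensor of cytosolic lipopolysaccharide, had 10.7 FPKM in old tumor-bearing, 0.0861 in old naive, 0.647 in young tumor-bearing and 0.237 in young naive tissue. Gsdmd, the pore-forming protein that caspases cleave, had 20.3 FPKM in old tumor-bearing, 2.18 in old naive, 3.30 in young tumor-bearing and 0.597 in young naive tissue. The last list held 5 genes of the prenylation pathway, through which Gbp2 and Gbp5 receive lipid anchors. Of these, 1 of 5 was at least 2-fold higher in old tumor-bearing tissue, near the 20.6% of all genes. In young tumor-bearing tissue it was 0 of 5, near the 5.05% of all genes. The gene higher in old mice, Pggt1b, had 6.81 FPKM in old tumor-bearing, 2.90 in old naive, 4.04 in young tumor-bearing and 4.65 in young naive tissue.

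The promoter element was also counted over all compared genes with a RefSeq promoter. In old tumor-bearing over old naive tissue 37.3% of 426 genes with GAAANNGAAA were at least 2-fold higher, against 18.5% of 10767 without it. In young tumor-bearing over young naive tissue the shares were 11.8% of 373 with it and 2.13% of 10222 without it. In old over young naive tissue they were 3.44% of 349 with it and 3.69% of 10173 without it. The share was thus larger with the element in both tumor comparisons and not in the naive one, in single libraries and with no test. The genes with the element include the 7 members that hold it, so the shares partly restate the members' own values.

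Genes with a profile like that of the members were sought by Euclidean distance over 3 log2 ratios (young tumor-bearing over young naive, old tumor-bearing over old naive, old naive over young naive) to the members' median. The 5 nearest protein-coding genes were Psmb9 at 0.34, Has2 at 0.40, Gbp8 at 0.42, Batf2 at 0.52 and Slfn4 at 0.56. Psmb9, an immunoproteasome subunit, had 38.8 FPKM in old tumor-bearing, 0.734 in old naive, 3.61 in young tumor-bearing and 0.361 in young naive tissue. The other 4 genes had at most 4 reads in either naive library. Gbp3 and Irgm2 were the most typical members, with 0 other genes nearer to the median than either, and Iigp1 was the least, with 137 genes nearer. The median was drawn from these same 10 members, so their nearness to it is partly built in. Its value for old over young naive tissue was 0.62 over all 10, beside 0.77 over the 8 compared above.

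Markers of other cells moved with the members only in part. The summed level of 12 T and NK cell markers was 49.8 FPKM in old tumor-bearing, 4.57 in old naive, 6.49 in young tumor-bearing and 2.25 in young naive tissue. Of the 12, 0 were at 0 reads in old tumor-bearing, 5 in old naive (Cd3d, Cd3e, Klrb1c, Ncr1 and Gzmb), 1 in young tumor-bearing and 8 in young naive tissue. At 1 FPKM or above, 9 of 10 were at least 2-fold higher in old tumor-bearing and 1 of 2 in young tumor-bearing tissue. Cd4 was the exception at both ages. It had 2.12 FPKM in old tumor-bearing, 3.87 in old naive, 1.39 in young tumor-bearing and 1.41 in young naive tissue. Cd4 thus made up most of both naive sums. Over all genes, 20.6% were at least 2-fold higher in old and 5.05% in young tumor-bearing tissue, and 31.4% were lower in old. The sum of 8 monocyte and macrophage markers was 28.0 FPKM in old tumor-bearing, 2.51 in old naive, 5.0 in young tumor-bearing and 1.90 in young naive tissue, with 5 of 6 at least 2-fold higher in old and 1 of 2 in young tumor-bearing tissue. Cd163, below the floor in both old libraries and so not counted, went the other way. It had 13 reads (0.102 FPKM) in old tumor-bearing and 80 reads (0.936 FPKM) in old naive tissue. Adgre4, also below the floor, had 10 reads in old tumor-bearing and 9 in old naive tissue. The 7 microglia markers summed to 134 FPKM in old tumor-bearing, 121 in old naive, 116 in young tumor-bearing and 94.3 in young naive tissue; 0 of 7 were at least 2-fold higher in either tumor comparison, and 1 of 7 was lower in old tumor-bearing tissue. The 7 endothelial markers summed to 102 FPKM in old tumor-bearing, 89.4 in old naive, 79.3 in young tumor-bearing and 92.1 in young naive tissue. This sum hides opposite differences: in old tumor-bearing over old naive tissue Ly6c1 was at least 2-fold higher and Flt1, Slco1a4 and Tek (3 of 7) were at least 2-fold lower, while 0 of 7 passed 2-fold in young mice. The part of T cells, NK cells, monocytes, proliferating cells and lower neuron, astrocyte and oligodendrocyte sums in the levels of the GTPase genes was not tested.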

How the data were processed

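Poly-A RNA of brain tissue was sequenced as paired-end Illumina libraries, 1 per group, per the labels' protocols, which describe stranded and unstranded preparations without saying which was used. The authors deposited 1 FPKM value per Ensembl gene and library, per the file headers. The submitters' processing notes name HISAT2 and mm10; the sources used here give neither counter nor annotation. GENCODE M21 gave symbols for 54495 of 54532 genes.

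FPKM times summed exon length came in steps of 1 read, which gave the divisors 23253750 (old tumor-bearing), 15646445 (old naive), 19999587 (young tumor-bearing) and 20445811 (young naive) and the reads: 31928 of 32846 genes (97.2%) gave whole numbers in every library (tolerance 0.03 reads or 2e-05 of the value). For 8 listed genes, Iigp1 among them, the shortest length giving whole reads was used. Log2 ratios used FPKM + 0.1 and a floor of 1 FPKM. Intervals are exact conditional binomial ones of the reads (95%) and cover counting error only, since reads are not independent molecules; shares use the delta method. A count of 0 was set to 3 reads for bounds. No test was made.

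The members and the 20 gene lists were chosen with earlier results of these data known. 1 gene of the interferon gamma list is not reported here and was left out of its counts. Named genes were the members, the family and interferon genes listed, up to 4 of each other list with the largest log2 ratio, the 5 nearest profiles and genes within 100 kb. Alternatives were pseudocounts of 1 and 0.01, no floor, a floor of 5 FPKM and 4 other scalings. The calculations were tested on simulated data, with Python 3.11.15, numpy 2.4.6, pandas 2.3.3 and scipy 1.17.1.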

Additional observations from a re-analysis of the deposited data

Results flagged for a closer look

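Some listed genes had log2 ratios of opposite sign in 2 contrasts of the same kind; none is one of the 10 GTPases, and in no case was the difference tested. Pggt1b, a prenylation enzyme subunit, had a log2 ratio of 1.204 in old tumor-bearing over old naive tissue and of -0.20 in young tumor-bearing over young naive tissue. In the age contrast, the IRG relative Irgq had a log2 ratio of -1.29 in old over young tumor-bearing tissue and of 0.58 in old over young naive tissue. Atl1, an atlastin, had -1.58 in tumor-bearing and 0.081 in naive tissue. The autophagy gene Gabarapl1 had -1.49 in tumor-bearing and 0.24 in naive tissue, and Map1lc3a, another, had -1.22 in tumor-bearing and 0.22 in naive tissue.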

How the results depend on the processing

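Across 8 alternatives (pseudocounts of 1 and 0.01, no floor, a floor of 5 FPKM, median-of-ratios scaling, equal FPKM totals, scaling by recovered fragments, and totals without mitochondrial and the 50 highest genes), no member's ratio reversed in the 2 tumor comparisons, in old over young tumor-bearing tissue or in the age by tumor difference. The count of members at least 2-fold higher remained 10 in old tumor-bearing over old naive and in old over young tumor-bearing tissue; in young tumor-bearing over young naive tissue it was 6 with the floor of 5 FPKM, which only 6 members reached. The median log2 ratio in old tumor-bearing over old naive tissue was 5.17 with a pseudocount of 1 and 6.29 by fragments, and in young tumor-bearing over young naive tissue 2.16 with a pseudocount of 1. In old over young tumor-bearing tissue it was 3.38 with a pseudocount of 1, 3.79 by median-of-ratios, 3.63 by equal totals and 3.86 by fragments. The median age by tumor difference was 3.40 by fragments. In old over young naive tissue the count was 0 with a pseudocount of 1 and with the floor of 5 FPKM, which no member reached, 3 with a pseudocount of 0.01, and 1 under each of the 4 scalings, where Gbp5 fell below 1 FPKM. The log2 ratio of Gbp2 changed sign under 3 of those scalings, down to -0.15. Scaling moved the median of all genes by up to 0.64 in old tumor-bearing over old naive and by -0.24 in old over young naive tissue. By fragments, 5366 genes passed 2-fold upwards and 3217 downwards in old tumor-bearing over old naive tissue, against 3395 and 5171 as reported. No paired analysis was possible because each group has 1 library. Depth limits Gbp6 and Iigp1 in naive tissue most.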
